A study of Homo sapiens with 4 samples.

Results

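The HOX genes were followed in a comparison of naive NB4 cells with an arsenic trioxide (ATO) resistant NB4 line. They were chosen by name: every probe whose gene name on the array was HOX, a cluster letter from A to D and a number. This gave 50 probes, 1 spot each per array, for 39 genes, out of 41000 probes and 23091 gene names on the array. The genes fell into 11 of the HOXA cluster, 10 of HOXB, 9 of HOXC and 9 of HOXD. The probes numbered 14, 16, 11 and 9 in the same order, and 10 genes had several.

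NB4 is an established human cell line of acute promyelocytic leukemia (APL), the leukemia in which the PML and RARA genes are fused. ATO is a drug used against this leukemia. The study compared 2 flasks of naive NB4 with 2 flasks of the ATO-resistant line, which the labels name NB4-VM-As-R1 and the methods NB4-EV-AsR1, both taken here as 1 clone. Both lines were kept in RPMI medium containing 10% FBS, ATO was withdrawn from the resistant cells 1 week before RNA was taken, and each flask was hybridized to 1 array, with Cy3 as the only dye. Independent flasks of a single naive line and a single resistant clone were used, so that the p-values measured the spread between flasks and not between independently derived lines.

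HOX genes encode homeodomain transcription factors and lie in 4 clusters, in which the order of the genes follows the part of the embryo that uses them. Genes at the same place in different clusters are paralogs and share a number, from group 1 at the anterior end to group 13 at the posterior end. In blood, HOXA and HOXB genes are active in stem and early progenitor cells and are shut down as cells mature, and high HOXA9 with its cofactor MEIS1 marks several acute leukemias with MLL or NPM1 lesions. APL is known for low levels of many of these genes.

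The sequences of the probes that carried the main difference are shown first, since 1 gene gave opposite results with different probes. They were taken from the deposited array files, run 5′ to 3′ in the sense of the gene, and have G and C in capitals and a and t in lower case. Positions are on hg19, the build named in the file headers, on the minus strand. The third is printed for its first 30 bases only.

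HOXA5, chr7:27181547-27181606: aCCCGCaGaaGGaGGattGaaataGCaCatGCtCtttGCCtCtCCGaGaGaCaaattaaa

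HOXA3, first probe, chr7:27149919-27149978: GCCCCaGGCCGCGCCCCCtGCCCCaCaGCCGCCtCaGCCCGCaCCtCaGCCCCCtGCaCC

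HOXA3, second probe, chr7:27146801-27146830: taattCCtttaaaCGGtaaCGatGCaataa

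The first HOXA3 probe was 81.7% G and C, more than 99.9% of all probes on the array. The second HOXA3 probe, 3148 bases away, was 35.0% G and C, and only 4.17% of probes held less. The HOXA5 probe was 45.0% G and C, near the middle of the array's probes. In 1 of its 3 reading frames the HOXA5 probe ran through 60 bases without a stop codon.

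Signals were taken as log2 values minus the 75th percentile of each array, so that a value of 0 lay at that percentile. Between 27922 and 28244 probes per array were well above background. Probes were tested with limma where both flasks of at least 1 line showed them well above background, 28221 in all, and a probe was called at an adjusted p below 0.05 together with a difference of 2-fold or more. All arrays shared a slide, with the naive flasks in the first positions and the resistant flasks in the last, so that slide position and line cannot be told apart. The naive flasks stood further apart than the resistant flasks: the SD of the difference between flasks over the probes tested was 0.71 for naive and 0.37 for resistant cells on the log2 scale. An exact permutation test of 2 flasks against 2 cannot go below p = 0.333.

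Of the defining genes of promyelocytes, 9 of 10 were above background in both naive flasks and all 10 in both resistant flasks, and MPO was saturated on all 4 arrays. ELANE, neutrophil elastase, was the exception, at -5.74 and -6.56 in naive flasks, where 1 array showed it. In both resistant flasks it stood at -3.66 (adjusted p = 0.0169). It entered the test through the resistant flasks alone, where it was high, so that the p-value is no independent evidence. AZU1, another granule protein, was called higher in resistant cells by 1.17 and ANPEP, a myeloid surface peptidase, was called lower, with a difference of -1.83 (adjusted p = 0.0472 and 0.0112). Of 7 T and B cell markers, CD3D and CD3G were called lower in resistant cells, with CD3D at 0.70 and 1.16 in naive flasks and neither of them well above background in resistant flasks, so that both were tested through the naive flasks alone. CD2 differed by 1.02 without being called. The summed linear level of that list was 3.10 and 3.44 in naive and 1.61 and 1.74 in resistant flasks, in units of the 75th percentile. Without CD3D it was 1.47 and 1.21 in naive and 1.60 and 1.73 in resistant flasks. MS4A1 of the B cell markers was not above background on any array. Of 10 stromal and 5 erythroid markers, 2 and 2 were above background in both naive flasks, and 3 and 2 in both resistant flasks. Only 3 stromal and 2 erythroid markers were tested. None was called, beside 5.27% of all probes tested, so that few calls could have been found. Whether any of this bore on the HOX values was not tested.

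Signal of the HOX genes was unevenly spread over the clusters. In all, 18 of 39 genes were well above background on all 4 arrays: 9 of 11 in HOXA, 4 of 10 in HOXB, 3 of 9 in HOXC and 2 of 9 in HOXD. By position this was 10 of 16 posterior genes (groups 9 to 13), 6 of 15 central genes (groups 4 to 8) and 2 of 8 anterior genes (groups 1 to 3). A further 15 genes were not well above background on any array: HOXA2, HOXB1, HOXB2, HOXB5, HOXB8, HOXC4, HOXC5, HOXC11, HOXC12, HOXC13, HOXD1, HOXD3, HOXD8, HOXD11 and HOXD12. The lines hardly differed in this count, with 19 genes above background in both naive flasks and 18 in both resistant flasks. The missing gene was HOXB3, whose spot on the first resistant array was marked as non-uniform and dropped, leaving -6.05 and -5.44 in naive cells and -5.62 in the remaining resistant flask.

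**Figure D1:**
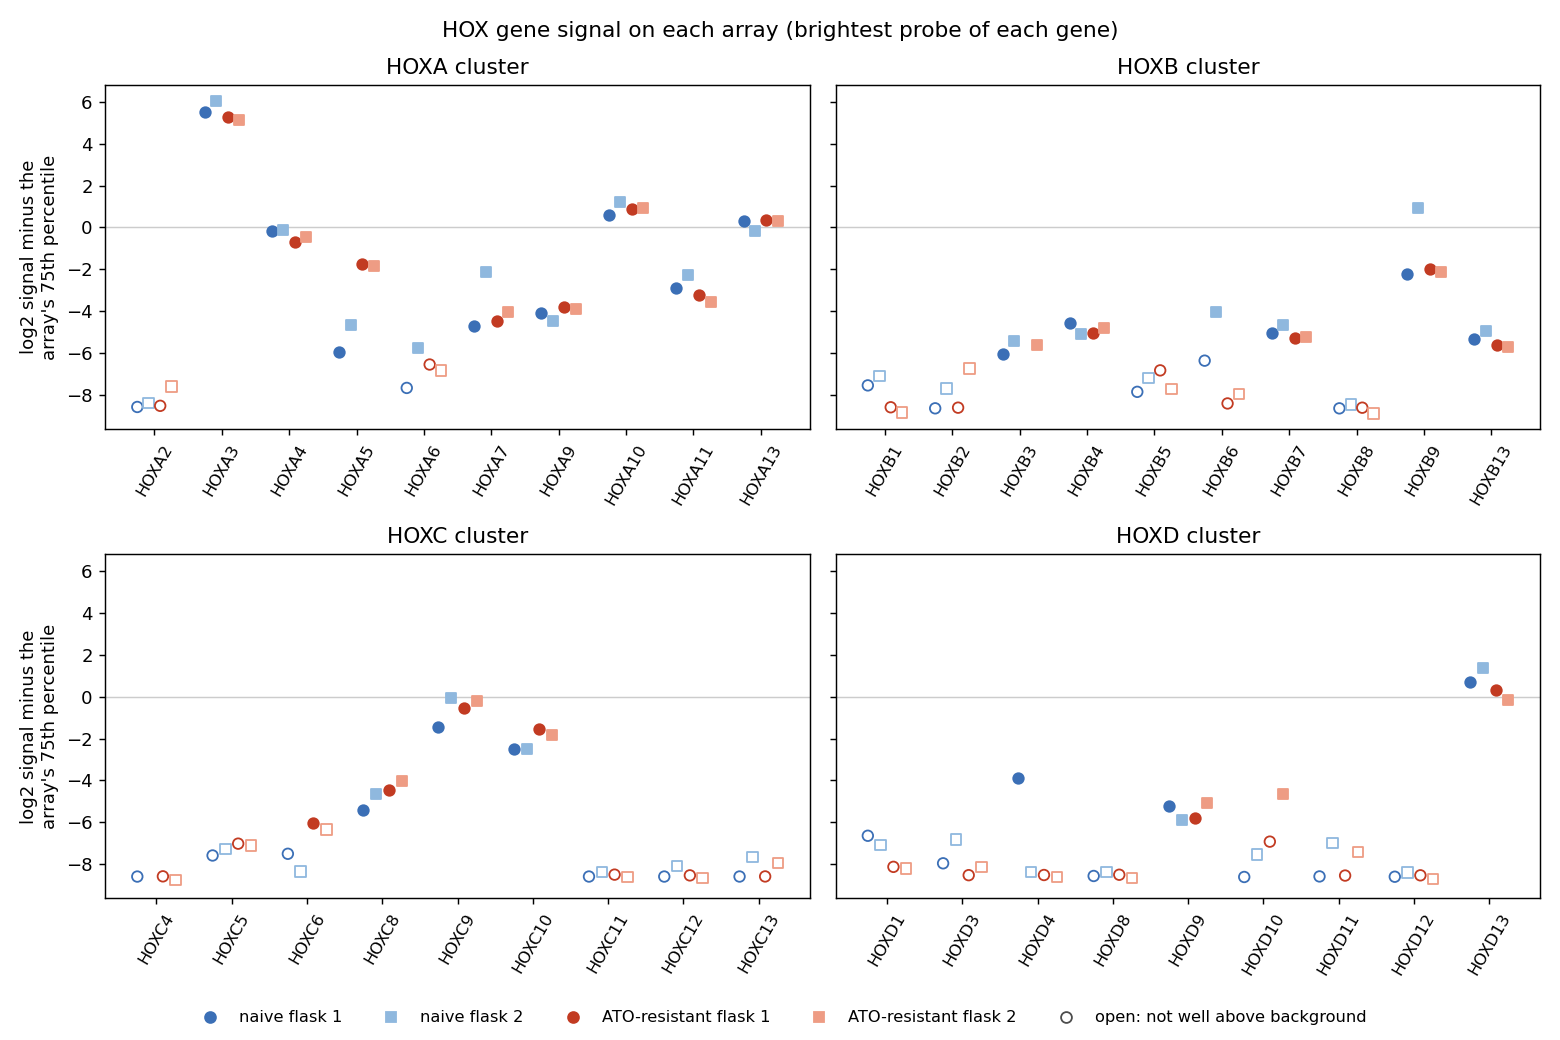
Log2 signal minus the array's 75th percentile (vertical axis) for the brightest probe of each HOX gene but 1 that is not shown (horizontal axis), in 4 panels, 1 per cluster, with 1 point per flask and open points where the spot was not well above background. HOXA5 is the gene with both resistant flasks (-1.77 and -1.85) far above both naive flasks (-5.97 and -4.68), and HOXB9 the gene whose second naive flask (0.95) stands above the other 3. Levels of different probes are not on a common scale.

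Of the 39 genes, 19 were tested through 24 probes. The probes called were 2 of 24, 1 of HOXA5 and 1 of HOXA3, whose other probe differed in the opposite direction, both higher in resistant cells, where 5.27% of all probes tested were called and 2.3% were called and higher. No HOX probe was called lower. The lines did not overlap on 14 of the 23 HOX probes measured on all arrays and on 52.8% of all such probes tested, and 6 of 24 HOX probes had an unadjusted p below 0.05, as did 19.1% of all probes. The median difference of the HOX probes, resistant minus naive, was 0.062 on the log2 scale, beside -0.020 for all probes. By cluster the median was -0.013 for HOXA, -0.40 for HOXB, 0.81 for HOXC and -0.42 for HOXD. The number of HOX probes called was 7 without the first naive flask and 5 without the second, and calls over the whole array moved the same way, to 13.2% and 16.1% of probes. Without the first or the second resistant flask it was 1, HOXA5, with 2.63% and 2.59% of all probes called. In each of these fits 1 line is a single flask that is assumed to vary like the other line.

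**Figure D2:**
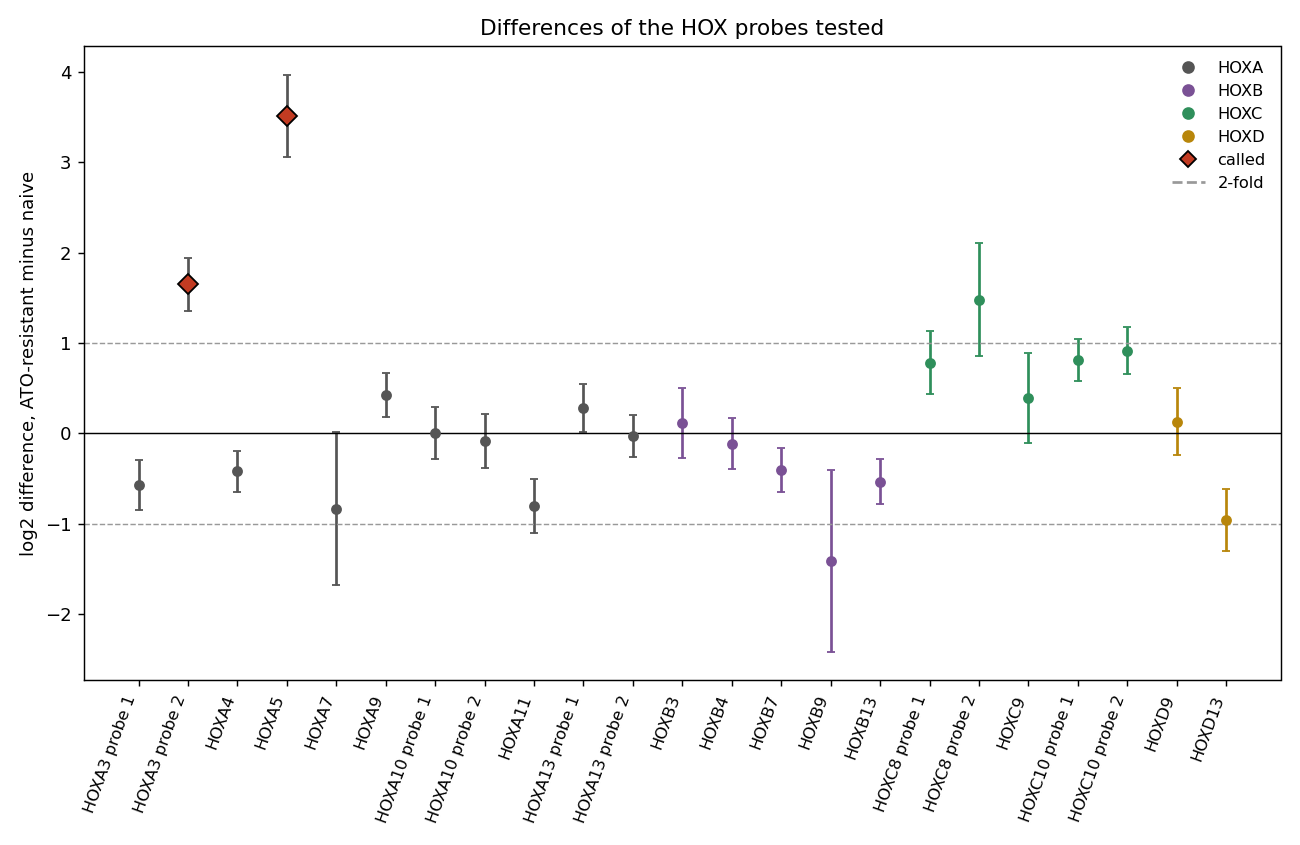
Log2 difference of resistant minus naive cells (vertical axis) with its SE for 23 of the 24 HOX probes tested (horizontal axis), coloured by cluster, with diamonds for the 2 called probes and dashed lines at 2-fold. HOXA5 stands at 3.52 and the second HOXA3 probe at 1.65, and the 5 HOXC probes, none of them called, lie between 0.39 and 1.48.

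HOXA5, a central gene known to act in blood progenitors and often silenced by methylation in leukemia, had the largest difference of the HOX probes tested and rose in resistant cells. Its values were -5.97 and -4.68 in the naive flasks and -1.77 and -1.85 in the resistant flasks. All 4 spots were well above background, the resistant flasks differed by less than the naive flasks, and the higher naive flask was still far below both. The difference was 3.52 (SE 0.45, n = 2 flasks per line), an 11.4-fold rise with an adjusted p of 0.0150. In bulk RNA, more cells with the transcript and more transcript per cell cannot be told apart. Spot means showed it before any scaling, at 43.4 and 62.2 units in naive and 342 and 279 units in resistant flasks, over local backgrounds of 19 to 23 units. The paralogs of HOXA5, HOXB5 and HOXC5, were not above background on any array. After normexp background correction with bright local backgrounds reset, the difference was 2.01 (adjusted p = 0.00463), and with plain normexp, where no probe of the array was called, it was 1.58 (adjusted p = 0.990).

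HOXA3, an anterior gene of the same cluster, gave results that depended on the probe, and which of them measures HOXA3 mRNA is not settled by these data. Its second probe measured -5.46 and -4.79 in naive and -3.50 and -3.45 in resistant flasks. Both resistant flasks lay above both naive flasks, and the probe was called, with a difference of 1.65 (SE 0.30, adjusted p = 0.0446), that is 3.14-fold. Its first probe, the one rich in G and C, measured 5.51 and 6.07 in naive and 5.28 and 5.16 in resistant flasks. There the resistant flasks lay below, the difference was -0.57 (SE 0.28) and it was not called (adjusted p = 0.350). The call on the second probe was lost without either resistant flask (adjusted p = 0.243 and 0.282). It was also lost with dim probes kept in the fit, where the adjusted p was 0.0922, and with bright local backgrounds reset after normexp, where the difference was 0.77.

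An unnamed probe on the opposite strand, at chr7:27147319-27147378, lay between the HOXA3 probes and measured -5.51 and -4.58 in naive and -3.87 and -3.78 in resistant flasks. Its order of flasks was that of the second HOXA3 probe, with a difference of 1.22 (SE 0.36, adjusted p = 0.156) that was not called. Of 7 probes within the HOXA cluster that carried no HOX gene name, 5 were tested and none was called. The antisense transcript HOXA11AS differed by 0.088. The strand of a probe is that of the array's design, so signal of a gene and its antisense partner is separated as far as the labeling kept the strand.

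**Figure D3:**
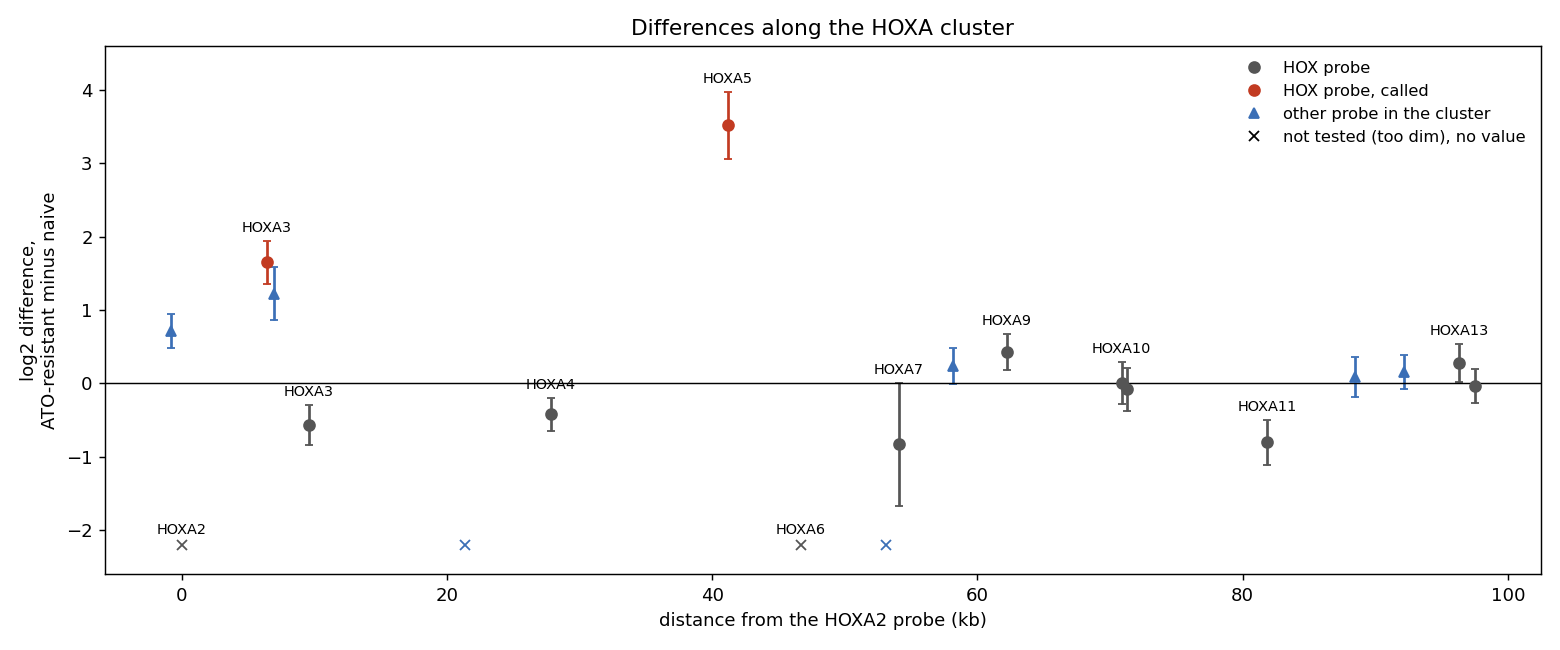
Log2 difference of resistant minus naive cells with its SE (vertical axis) against the distance in kb from the HOXA2 probe (horizontal axis) for the HOX probes shown (circles, red where called) and other probes (triangles) in the HOXA cluster, with crosses at the bottom for probes too dim to test. HOXA5 at 3.52 stands between HOXA4 at -0.42 and HOXA7 at -0.83, and a triangle at 1.22 lies beside the called HOXA3 probe.

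The neighbours of HOXA5 were not called. HOXA4, next to it on the anterior side, measured -0.18 and -0.13 in naive and -0.68 and -0.47 in resistant flasks, a difference of -0.42 (SE 0.23, adjusted p = 0.386). HOXA6, on the posterior side, was well above background in the second naive flask alone and was not tested. Its values were -7.69 and -5.77 in naive and -6.56 and -6.85 in resistant flasks. HOXA7, a gene often active with HOXA9 in MLL-rearranged leukemia, measured -4.74 and -2.12 in naive and -4.48 and -4.04 in resistant flasks. The resistant values fell between the naive ones, and the difference of -0.83 had an SE of 0.84.

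Posterior HOXA genes were above background on all arrays and were not called. HOXA9, the HOX gene most tied to acute myeloid leukemia, measured -4.09 and -4.46 in naive and -3.80 and -3.90 in resistant flasks, a difference of 0.43 (SE 0.24, adjusted p = 0.412). HOXA10, a further gene of early myeloid cells, measured 0.58 and 1.20 in naive and 0.86 and 0.92 in resistant flasks, a difference of 0.0046 (SE 0.29) that its other probe put at -0.082. The sign of the first turned with quantile or scale normalization (-0.011 and -0.036). HOXA11 measured -2.90 and -2.29 in naive and -3.24 and -3.56 in resistant flasks. Its flasks did not overlap, yet the difference of -0.80 (SE 0.30) had an adjusted p of 0.243. The HOXA13 probes differed by 0.28 and -0.030, the latter 0.030 with quantile normalization.

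In the HOXB cluster, 5 probes were tested and none was called, with a median difference of -0.40 that became 0.18 with plain normexp. HOXB4, which is known to expand blood stem cells, measured -4.57 and -5.11 in naive and -5.08 and -4.83 in resistant flasks, a difference of -0.11 that was 0.28 with plain normexp. HOXB7 differed by -0.40 and HOXB13, the most posterior gene of the cluster, by -0.53, with SEs of 0.24 and 0.25, and both differences were above 0 with plain normexp. HOXB9 measured -2.24 and 0.95 in naive and -2.00 and -2.11 in resistant flasks. The first naive flask and both resistant flasks lay close together, and the difference of -1.41 had an SE of 1.00 (adjusted p = 0.503). HOXB6 was above background in the second naive flask only, at -4.07, against -6.38 in the first and -8.43 and -7.97 in the resistant flasks.

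In the HOXC cluster, 5 probes of 3 genes were tested and none was called, with differences from 0.39 to 1.48 and a median of 0.81. HOXC10 had 2 probes with similar differences. The first gave -2.50 and -2.48 in naive and -1.53 and -1.83 in resistant flasks, a difference of 0.81 (SE 0.23, adjusted p = 0.149), and the second a difference of 0.91 (SE 0.26, adjusted p = 0.142). On neither did the lines overlap. HOXC8 was measured by 2 probes as well, with -5.44 and -4.64 in naive and -4.46 and -4.05 in resistant flasks on the first, and a difference of 0.78 (SE 0.35, adjusted p = 0.312). The second HOXC8 probe, above background in 1 naive and both resistant flasks, differed by 1.48 (SE 0.63, adjusted p = 0.290). It entered the test through the resistant flasks alone, where it was high, so that the p-value is no independent evidence.

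HOXC9, the remaining gene, measured -1.46 and -0.05 in naive and -0.55 and -0.18 in resistant flasks, so that both resistant values lay within the naive range, with a difference of 0.39 (SE 0.50) that became -0.31 without the first naive flask. HOXC6 was above background in the first resistant flask only, at -6.03 there and -6.35 in the second, against -7.52 and -8.37 in naive flasks. The other HOXC genes, HOXC4, HOXC5 and HOXC11 to HOXC13, and HOTAIR, the noncoding RNA between HOXC11 and HOXC12, were not above background on any array. An unnamed probe on the opposite strand at chr12:54377723-54377782, between HOXC11 and HOXC10, measured -4.35 and -4.80 in naive and -3.61 and -3.46 in resistant flasks. That difference of 1.04 (SE 0.26, adjusted p = 0.108) was not called.

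In the HOXD cluster, which is best known from limb development, 2 of 9 genes were tested. HOXD13 measured 0.69 and 1.38 in naive and 0.32 and -0.17 in resistant flasks, so that both resistant flasks were lower. Its difference of -0.96 (SE 0.34) was not called, with an adjusted p of 0.220. It was called without the first naive flask, at -1.31, where the spread came from the resistant flasks alone. HOXD9 differed by 0.13 (SE 0.37). HOXD10 was above background in the second resistant flask only, at -4.67 against -6.93 in the first and -8.63 and -7.55 in naive flasks. HOXD4 was above background in the first naive flask only, at -3.87, with -8.39 to -8.63 on the other arrays. The pixels of that 1 spot were uneven, with a mean of 98.8, a median of 86.0 and an SD of 57.4 over 65 pixels, and it was not marked as an outlier.

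Several HOX genes stood apart between the naive flasks. Among the probes tested, 5 of 24 HOX probes were at least 2-fold higher in the second naive flask than in the first. Of all probes, 8.66% were. No HOX probe was 2-fold lower, beside 1279 of all 28132 probes, so that few could have been found. The higher probes were HOXB9 (3.19), HOXA7 (2.61), HOXC8 (second probe, 1.90), HOXC9 (1.41) and HOXA5 (1.29 on the log2 scale). The first naive flask did not show this HOXC8 probe well above background, at -7.00, so that its 1.90 is no measure of size. The HOXB9 spots had means of 255 units in the first and 1743 in the second naive flask, with 283 and 212 in the resistant flasks. For HOXA7 they were 63.9 and 229, with 69.1 and 68.6. None of these spots was marked as an outlier.

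All 5 probes lay in paralog groups 5 to 9, where 9 probes were tested, and none of the 15 other probes reached 2-fold, a grouping chosen after the values were seen and therefore not tested. Among probes too dim to be tested, second minus first naive flask was 2.31 for HOXB6 and 1.92 for HOXA6 of these groups, and -0.86 for HOXC6. Outside them it was 1.60 for HOXD11, 1.13 for HOXD3, 1.07 for HOXD10, -1.05 for the second HOXB4 probe and -4.51 for HOXD4, with 1 or both spots not well above background. Not all genes of these groups were: the second minus the first flask was -0.37 for HOXA9, -0.67 for HOXD9 and 0.37 for HOXB7. Between the resistant flasks no HOX probe of 23 differed 2-fold, and 2.05% of all probes did, so that few could have been found. There the SD of the flask difference over HOX probes was 0.32, against 0.97 for naive cells. The naive flasks also differed in PRTN3, the neutrophil proteinase, at 3.16 in the first and 0.80 in the second. It was 4.43 and 4.32 in the resistant flasks. In the spike-in controls the median in the first minus the second naive flask was -1.31 after scaling (log2, 6 of 10 controls). For the resistant flasks, minus the second naive flask, it was -0.24 and -0.27. The part of PRTN3 or of the controls in the HOX differences was not tested.

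**Figure D4:**
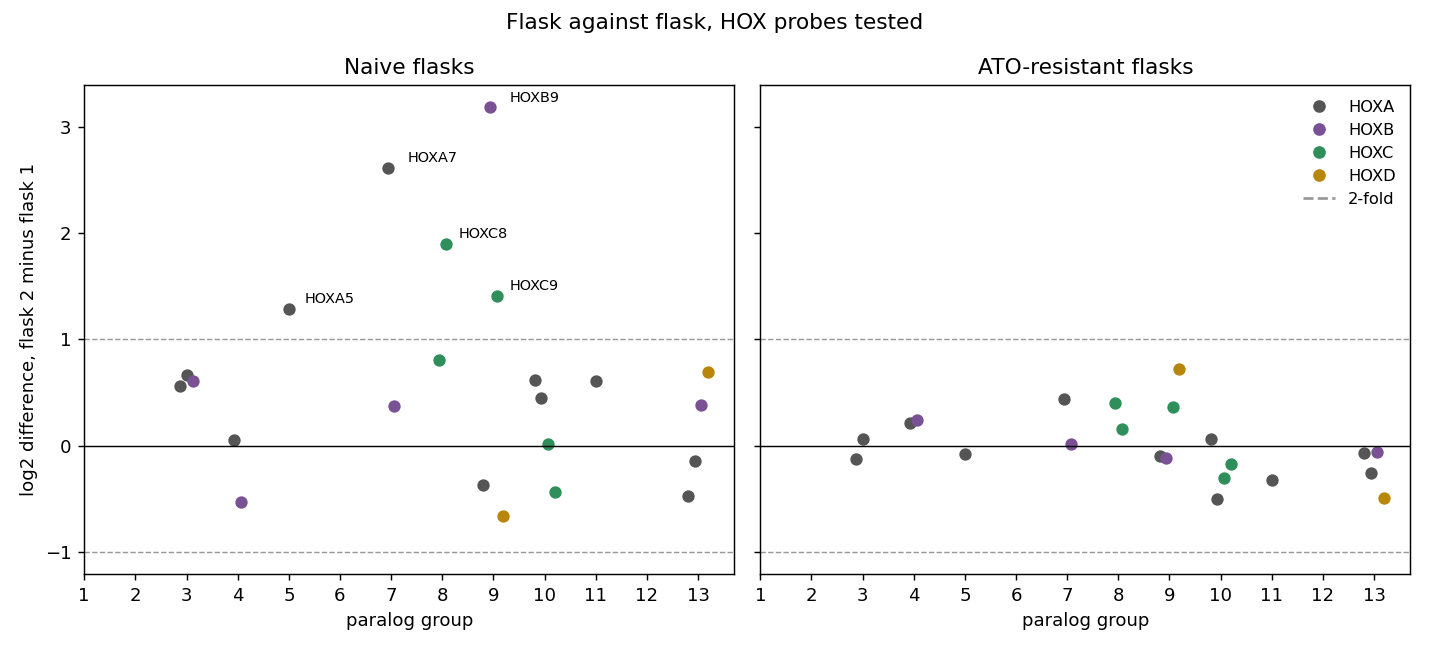
Log2 difference of flask 2 minus flask 1 (vertical axis) by paralog group (horizontal axis) for 23 of the HOX probes tested, in naive (left) and resistant (right) cells, coloured by cluster, with dashed lines at 2-fold. The 5 named probes above 2-fold in naive cells, from HOXA5 at 1.29 to HOXB9 at 3.19, lie in groups 5 to 9, and no probe passes 2-fold in resistant cells.

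These flask differences moved single results. Without the second naive flask, HOXB9 differed between the lines by 0.18 and HOXA7 by 0.48, and without the first by -3.004 and -2.14. HOXC9 differed by 1.099 without the second naive flask. Calls in these fits take the spread from the resistant flasks alone, and with both naive flasks the adjusted p was 0.503 for HOXB9, 0.643 for HOXA7 and 0.717 for HOXC9. HOXA5 differed by 2.87 without the first and 4.16 without the second.

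Promoter sequence could be read for 20 of the 39 genes, in RefSeq windows of GRCh38.p14 from 250 bases before to 50 after a start. HOXC4 and HOXC5 shared 1 window, and HOXA3 had 7. The bases before the start are printed for HOXD13 and HOXA7, the former with resistant flasks below naive ones, the latter with the naive flasks far apart. They are in lower case except matches to TATAAA, the core of the TATA box, and GGGCGG, a GC box, on either strand.

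HOXD13, chr2:176092471-176092720, plus strand: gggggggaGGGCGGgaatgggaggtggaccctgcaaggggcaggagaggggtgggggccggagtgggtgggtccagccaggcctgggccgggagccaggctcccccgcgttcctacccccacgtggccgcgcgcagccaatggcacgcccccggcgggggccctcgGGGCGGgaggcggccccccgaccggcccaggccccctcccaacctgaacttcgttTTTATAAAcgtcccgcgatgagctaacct

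HOXA7, chr7:27156676-27156925, minus strand: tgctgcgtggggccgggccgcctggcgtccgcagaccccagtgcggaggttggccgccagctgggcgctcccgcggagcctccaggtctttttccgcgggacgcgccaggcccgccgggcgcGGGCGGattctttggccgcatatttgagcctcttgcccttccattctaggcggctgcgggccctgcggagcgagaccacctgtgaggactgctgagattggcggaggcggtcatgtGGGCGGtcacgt

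In HOXD13 the TATAAA letters matched on both strands in overlapping positions, from 29 bases before the start, and GGGCGG matched 2 times. HOXA7 held GGGCGG 2 times and no TATAAA. Over the windows, TATAAA was held by 4 of 20 HOX genes (HOXA3, HOXA9, HOXA10 and HOXD13), or 20%, and by 13.99% of all 27305 genes. GGGCGG was held by 10 HOX genes, or 50%, and by 48.3% of all. TTTATG, a motif of the CDX factors that can share letters with TATAAA, was held by 3 HOX genes, or 15%, against 12.9%. TGATTNAT, a joint motif of HOX and PBX proteins, was held by HOXA2 and HOXD11 alone, 10% against 3.47%. AGGTCA, the core of retinoic acid response elements, was in none of the 20 and in 16.5% of all. These are matches of letters on both strands in short windows, and the data hold no binding at them.

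HOX proteins bind DNA with cofactors of the TALE class, the MEIS, PBX and PKNOX proteins. Of the cofactors and related genes listed, 13 probes for 9 genes were tested, with a median difference of 0.26. None was called, beside 5.27% of all probes tested, so that few calls could have been found. MEIS1, the partner of HOXA9 in leukemia, measured -4.99 and -4.54 in naive and -3.20 and -3.58 in resistant flasks. Both resistant flasks were higher, and the difference of 1.37 (SE 0.28) had an adjusted p of 0.0638. MEIS2 was close to it, with -1.62 and -2.03 in naive, -0.80 and -0.56 in resistant flasks and an adjusted p of 0.0840. PBX3 differed by 0.24 (adjusted p = 0.605).

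The MLL and menin complex keeps HOX genes active, and the Polycomb complexes silence them. None of 37 probes of the former group and none of 31 of the latter was called, beside 5.27% of all probes tested. The medians were -0.053 and -0.027. The latter list also held histone demethylases that oppose this silencing. MLL itself, now named KMT2A, differed by -0.20 and its menin partner MEN1 by -0.25. EZH2, the Polycomb methyltransferase, differed by -0.027 (adjusted p = 0.971). BMI1, a Polycomb protein of stem cells, measured -1.16 and -1.23 in naive and -0.18 and -0.17 in resistant flasks, a difference of 1.02 (SE 0.22) with an adjusted p of 0.0701. Its dimmer probe differed by 0.59 (SE 0.31, adjusted p = 0.381). AFF1, a frequent fusion partner of MLL, was measured by 3 probes with differences of 1.12, 1.09 and 0.65, none called (adjusted p = 0.106, 0.0972 and 0.199). The file headers place the first of these far from the others on the chromosome and on the other strand, so that it is AFF1 by name only. Differences over 2-fold without overlap or call were also found on 1 probe of MLLT3 (1.06), a further MLL partner. The same held for 1 probe each of the Polycomb genes PHC1 (-1.01), PHC2 (-1.07) and CBX7 (-1.44). The brighter probes of MLLT3 and PHC2 differed by 0.79 and -0.64, and the other PHC1 probe by -0.94. The other CBX7 probe differed by -0.83, with overlapping lines. CBX7 on the first stood at -4.95 and -2.51 in naive and -5.09 and -5.24 in resistant flasks. By the array's annotation both PHC1 probes lie near chr12:55804372 on the minus strand, and whether they measure PHC1 was not tested.

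Among the genes upstream of the clusters, 2 of 22 probes were called, beside 5.27% of all probes tested. Both were lower in resistant cells. CDX2, a caudal homeobox factor that can switch HOX genes on, measured -5.83 and -5.84 in naive flasks and was not well above background in resistant flasks, at -8.57 and -8.86, so that it was at least 1.56-fold lower (adjusted p = 0.00353). CYP26B1, which breaks down retinoic acid, was at least 5.69-fold lower (adjusted p = 0.0177), from -3.92 and -3.97 to -6.29 and -7.34, while its other probe was above background only in the second resistant flask, at -5.78. Both called probes entered the test through the naive flasks alone, where they were high, so that the p-values are no independent evidence, and the bound of CDX2 lies under 2-fold. CDX4 was above background in the first naive flask only, at -5.37. RARA, the retinoic acid receptor fused in APL, differed by 0.36 on its brighter probe and -0.31 on the other, neither called.

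Of other homeobox genes outside the 4 clusters, 3 of 23 probes were called, beside 5.27% of all probes tested. SATB1, a chromatin organiser, rose from 1.11 and 1.60 to 2.73 and 2.82 (difference 1.42, adjusted p = 0.0483). GBX2, at -3.53 and -4.74 in naive flasks, was not above background in resistant flasks, at least 5.06-fold lower (adjusted p = 0.0373), and 1 probe of NKX2-3 was at least 2.44-fold lower (adjusted p = 0.00393). These probes too were tested through the naive flasks alone. The brighter probe of NKX2-3 differed by -0.33 and was not called. HLX and DLX1 differed by 1.26 and 1.34, and were not called. The dimmer DLX1 probe differed by 0.61 (adjusted p = 0.352). Of the genes that flank the clusters, only probes that the file headers place on the chromosome of the cluster were counted, a restriction made after the values were seen. Over all probes tested, 5.27% were called. Neighbours called were 1 of 10 at HOXA, 0 of 17 at HOXB, 2 of 14 at HOXC and 0 of 20 at HOXD. At HOXC these were GPR84, a receptor for fatty acids, which fell by 4.30 (adjusted p = 0.00113), and ZNF385A, a zinc finger gene, which rose by 1.95 (adjusted p = 0.0211). At HOXA it was 1 probe of JAZF1, which fell by 2.60 (adjusted p = 0.00786). CBX1 beside HOXB differed by 1.01 and TTC30B beside HOXD by -1.55, and neither was called. TTC30A, also beside HOXD, differed by -1.22 on its brightest probe and by -1.42 and -1.003 on the others. On none of these probes did the lines overlap, and none was called. The last of them was well above background in only 1 resistant flask.

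**Figure D5:**
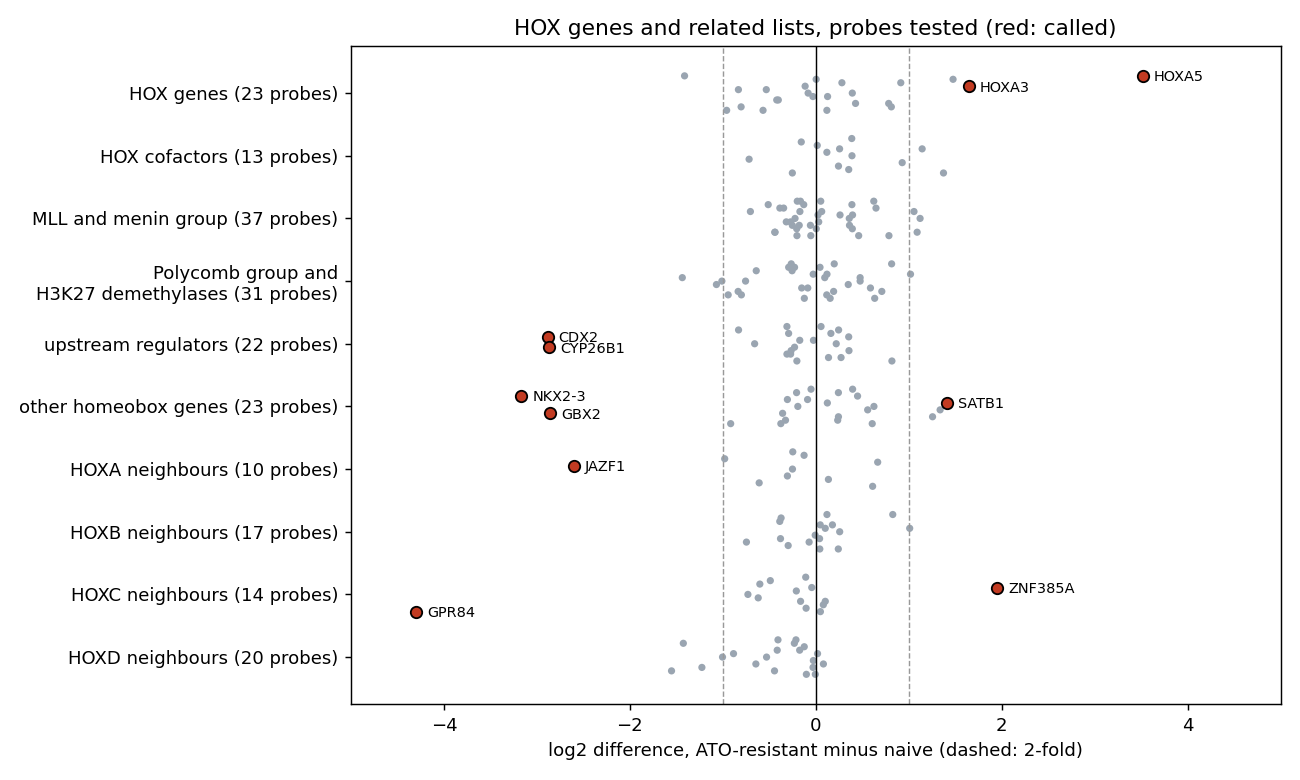
Log2 difference of resistant minus naive cells (horizontal axis) for the probes tested, less 1 HOX probe, by list (neighbours on the chromosome of the cluster, vertical axis, small vertical offsets only separate points), with called probes in red and named and dashed lines at 2-fold. HOXA5 at 3.52 is the highest point, and CDX2, CYP26B1, GBX2 and NKX2-3, called lower, were not well above background in resistant cells, so that their plotted differences are no measure of size.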

How the data were processed

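Each flask was run on its own array, 4 in all, in a single colour. Per the file headers, images were read with Feature Extraction 10.5.1.1, and the authors deposited for each spot a processed linear intensity, from which background had been taken off, with raw spot and local background intensity beside it. GeneSpring GX gave the log2 table that the authors deposited too.

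Control spots and outlier spots were removed in R 4.3.3, probes were averaged on the log2 scale and each array was shifted to its 75th percentile, which gave r of at least 0.9998 with the deposited log2 table. The test was limma 3.58.1 (lmFit, eBayes), with Benjamini-Hochberg adjustment over the probes tested, and the script was tested on simulated data. The members, lists and tests were chosen with earlier results of these data known. Each gene is represented by its brightest probe on average, and by others where they differ. HOX genes may all be named. Genes of other lists were named where called, where the lines were apart and differed 2-fold, or from a short list (MEIS1, PBX3, MLL, MEN1, EZH2, BMI1, RARA, CDX2, CDX4). MPO, PRTN3 and MS4A1 were named after their values were seen. Where neither flask of a line showed a probe above background, the fold is a bound against the lowest signal well above background on each array. Values of some members are not reported here, though the counts include them. Precision is limited by the number of arrays.

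Same-numbered flasks deviated together only weakly (r = 0.12, 2 pairs), so the numbers were not taken as pairs. The alternatives were normexp with an offset of 50, with and without local backgrounds over 100 units reset, scale and quantile normalization, the median in place of the percentile, other filters, an intensity trend, the deposited table, the methods' t-test, other thresholds, a replicate block, each flask left out, and the mean over probes.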

Additional observations from a re-analysis of the deposited data

How the results depend on the processing

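The count of 2 HOX probes called was 0 with plain normexp and with the Benjamini-Hochberg adjusted form of the methods' t-test, settings in which no probe of the array was called. By unadjusted p, 1 and 3 HOX probes were below 0.05 in them. The count was 1, HOXA5, with bright local backgrounds reset, with no filter on dim probes, with probes above background on all 4 arrays and with an intensity trend, and 4 at 2-fold without a test, when HOXB9 and the second HOXC8 probe joined. It ranged from 1 to 7 when single flasks were left out, while the share of all probes called ranged from 2.59% to 16.1%. With the replicate number as a block it stayed at 2, the same probes, and the block turned HOXB3 to -0.18. Scale and quantile normalization, the median shift, the deposited table and the methods' t-test at its unadjusted threshold gave 2. The call of HOXA5 was lost in 2 settings only, plain normexp and the adjusted t-test (adjusted p = 0.301).

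The median over the array shifted by 0.15 with plain normexp, which gave HOX medians of 0.21 for all, 0.18 for HOXB, 0.48 for HOXC and -0.22 for HOXD. With bright backgrounds reset they were -0.084 for HOXB, 0.47 for HOXC and -0.34 for HOXD, and with no filter -0.12, 0.39 and -0.19. The HOXB median was -0.30 with quantile and -0.33 with scale normalization. Leaving out single flasks gave medians from -0.071 to 0.18 for all HOX probes, -0.59 to -0.22 for HOXB and 0.53 to 1.099 for HOXC.

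Of 470 values of single probes under alternatives, 30 changed sign, 10 were newly called, 10 were no longer called and 420 did neither. With plain normexp, HOXA10 was -0.24, HOXB13 0.18, HOXB3 -0.59, HOXB4 0.28, HOXB7 0.20 and the second HOXA13 probe 0.16. With backgrounds reset the HOXA10 probes were -0.22 and 0.016. HOXA10 was -0.011 with quantile, -0.036 with scale normalization and -0.039 over its probes, the second HOXA13 probe 0.030, 0.022 and, with the median shift, 0.015, and HOXA3 over both probes 0.54. Leaving out single flasks, values ran from -0.30 to 0.31 for HOXA10 and -0.33 to 0.17 for its second probe, -0.16 to 0.10 for the second HOXA13 probe, -2.14 to 0.48 for HOXA7, -0.18 to 0.42 for HOXB3, -0.38 to 0.15 for HOXB4, -3.004 to 0.18 for HOXB9, -0.31 to 1.099 for HOXC9 and -0.24 to 0.49 for HOXD9. The causes were not tested. Signals near background limit HOXA5, HOXC8 and most HOXB values.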
